A study of Homo sapiens with 2 samples.

Results

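The 34 genes described here carry glucose into the cell, break it down to pyruvate and lactate, move lactate across the membrane and control the entry of pyruvate into the mitochondrion. They were chosen by name, as the rows of the authors' deposited gene table whose gene symbol is on a fixed list, and each of the 34 matched 1 of the table's 60586 genes. The study set 2 established human leukaemia lines side by side: K562, from chronic myeloid leukaemia, which carries the BCR-ABL1 fusion and which the labels describe as erythrocyte, and MOLT4, from T cell acute lymphoblastic leukaemia, which the labels describe as T lymphoblast. Both lines grew in DMEM, a glucose-containing medium, with fetal bovine serum and antibiotics, and total RNA came from a single flask. The labels name no treatment, each is a cancer line with no normal counterpart here, and the comparison is of these cultures. The deposited table gives 1 value per gene and line in FPKM, fragments per kilobase of transcript and per fixed number of mapped fragments. The design text states 3 biological replicates, but whether the values combine them is not stated in the sources at hand, and for that reason no value below carries an SD, and each q is the authors' own. Where a pair of values is given without the names of the lines, MOLT4 comes before K562.

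Glycolysis splits each glucose into a pair of pyruvate molecules in the cytosol and yields a little ATP and NADH. Most steps can be carried out by several isozymes from separate genes, which differ in regulation and tissue: HK1, PFKL and PKLR are the forms of mature red cells or liver, while HK2, PKM and LDHA are prominent in dividing and tumour cells. Proliferating lymphoblasts and erythroid precursors both turn much glucose into lactate, and red cells, which lose their mitochondria, depend on glycolysis for ATP.

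The marker genes followed the labels. In the authors' deposited table, 7 of 8 erythroid markers were called higher in K562 (summed level 972 FPKM against 2.81 FPKM in MOLT4, with 4 listed at 0 there), and all 8 T lymphoblast markers were called higher in MOLT4 (3072 FPKM against 60.0 FPKM). Monocyte, granulocyte and B cell markers did not exceed 1.89 FPKM in either line. Of 6 fibroblast, epithelial and endothelial markers, EPCAM was at 52.8 FPKM in K562 and PECAM1 at 41.2 FPKM in MOLT4 cells and 10.2 FPKM in K562, with CDH5 listed at 0 in both, and the part of such differences in the results below was not tested. Summed FPKM over all genes was 627392 in MOLT4 and 676421 in K562, and the depth is unknown.

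Of the 16 steps, 6 differed at least 2-fold in summed level: glucose uptake, hexokinase, fructose 2,6-bisphosphate control, aldolase and enolase were higher in K562, and the pyruvate dehydrogenase kinases were higher in MOLT4. K562 had the higher levels of the glucose transporters SLC2A1 and SLC2A3, of hexokinase 1, PFKFB2, PFKFB4, aldolase A and enolase 1, and MOLT4 had the higher levels of hexokinase 2, GAPDH, PGK1, LDHB and the kinases PDK2 and PDK3. Of the 34 genes, 31 were tested by the authors and 3 (SLC2A5, HK3 and PGAM2) were not, and these 3 were at 0.104 FPKM or less in both lines. A gene is called here where the authors' deposited q, from Cuffdiff with Benjamini-Hochberg adjustment over 18870 tested genes, was at most 0.05. Of the 31, 19 were called in the authors' deposited table, against 42.2% of all tested genes. Among these 19, 12 were higher in K562, which is 38.7% of those tested against 23.4% of all tested genes, and 7 were higher in MOLT4, 22.6% against 18.8%. Over all tested genes, calls were more frequent among abundant ones, at 46.6% with a mean of at least 10 FPKM. Of the pathway genes at that level 14 of 23 were called, 60.9% against 61.3% of the 31. At least 2-fold apart, with a mean of at least 1 FPKM and both values above 0, were 9 of 30 pathway genes toward K562 (22.8% of all genes) and 5 toward MOLT4 (19.3% of all genes). The median log2((K562 + 1)/(MOLT4 + 1)) was 0.15 over the 30 genes and 0.06 over all 14118 genes at that level. With each line scaled to an equal sum both medians moved down, to 0.0550 and -0.0387. The genes together held 1.02% of the summed FPKM of MOLT4 and 1.04% of that of K562.

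**Figure D1:**
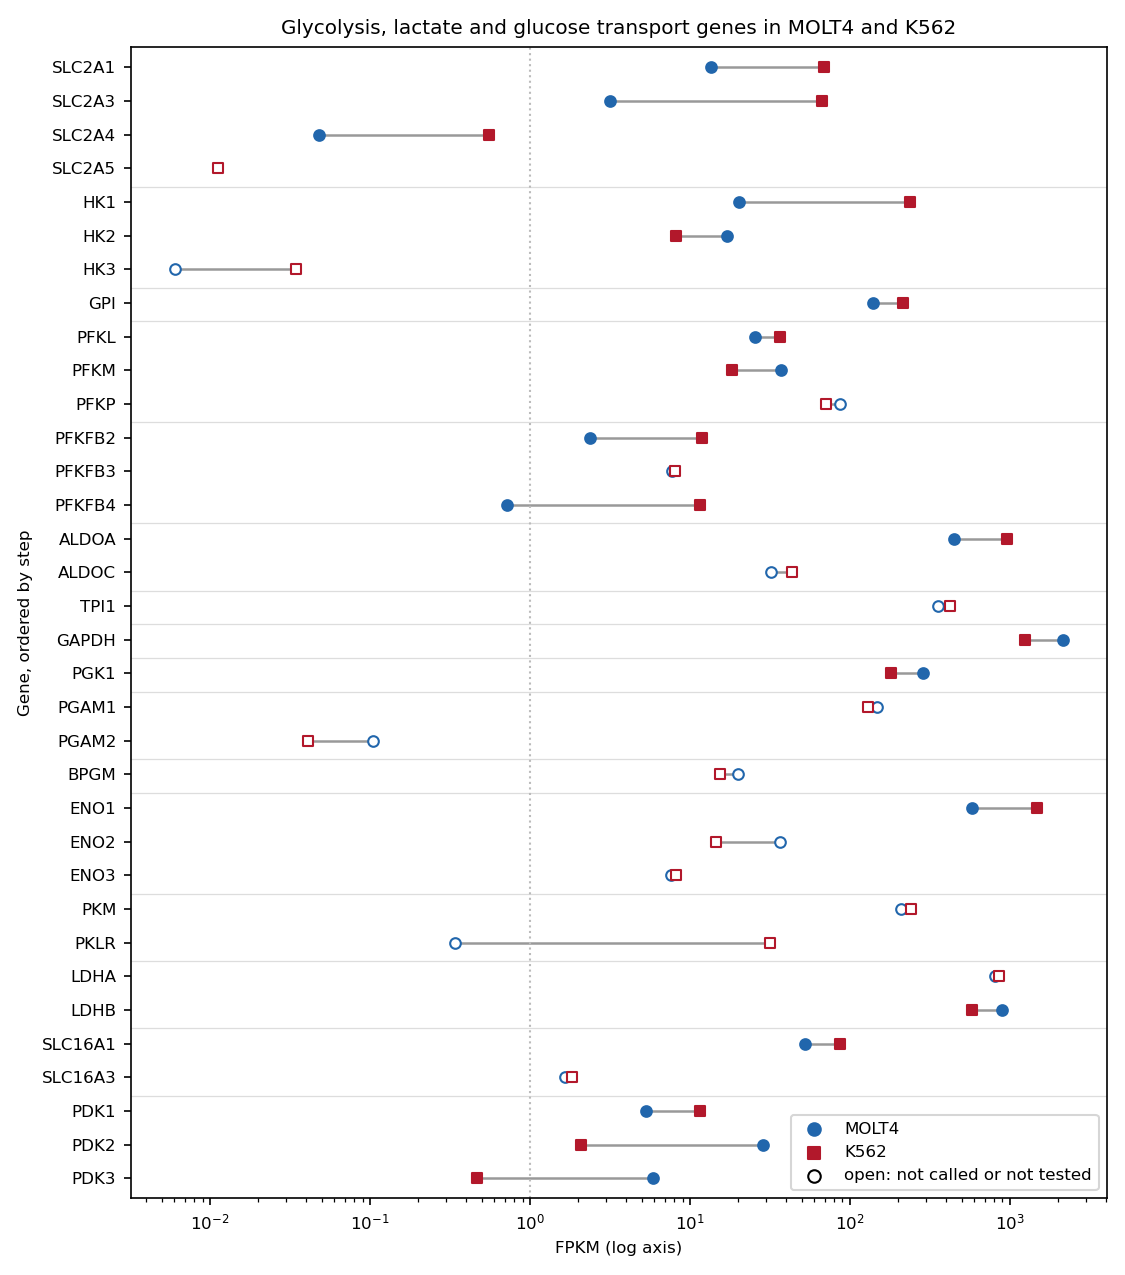
FPKM of each of the 34 genes on a log axis, grouped by step, with circles for MOLT4 and squares for K562; filled symbols mark genes called at a q of at most 0.05 in the authors' deposited table, open symbols genes not called or not tested, and the dotted line is at 1 FPKM. PKLR shows the widest gap, 0.340 against 31.7 FPKM, and SLC2A5, listed at 0 in MOLT4, has a single symbol.

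**Figure D2:**
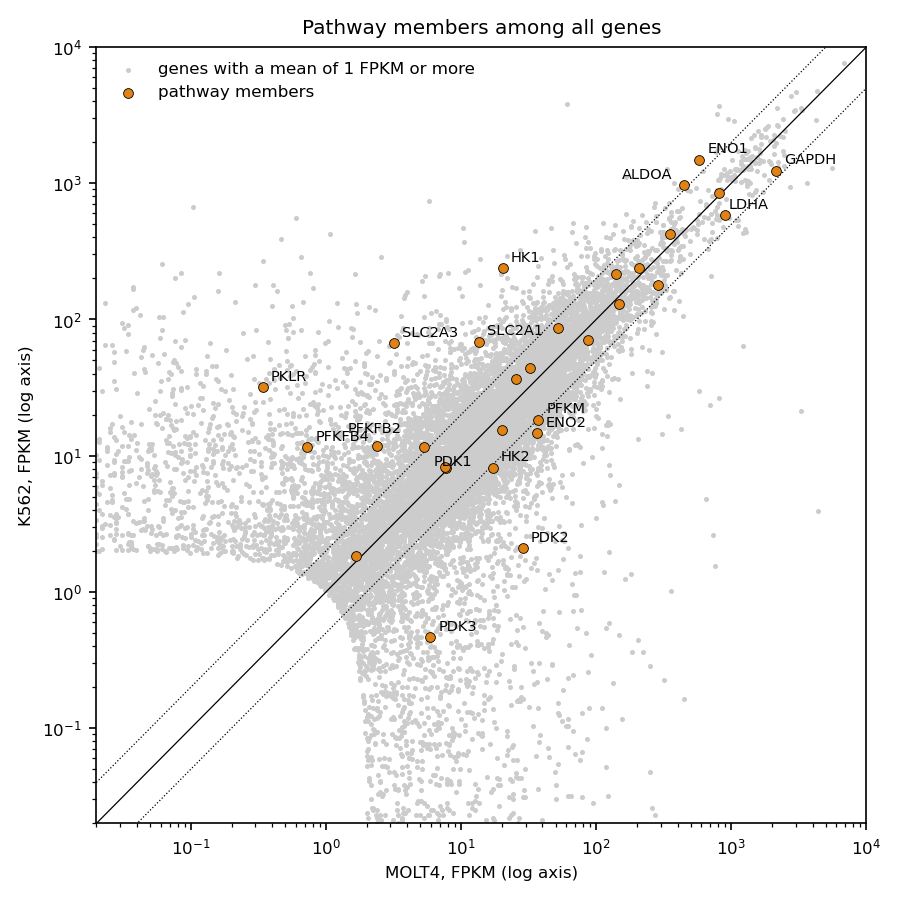
Level of each gene with a mean of at least 1 FPKM in MOLT4 (horizontal) and K562 (vertical), both on log axes, with the pathway genes in orange; the solid line marks equal levels, the dotted lines a 2-fold difference, and genes below the lower ends of the axes are not drawn. The 16 pathway genes between the dotted lines include GAPDH and LDHA, and HK1, SLC2A3 and PKLR lie far above them.

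Glucose enters through facilitative transporters of the SLC2A family. SLC2A1 encodes GLUT1, the basal transporter of most cells and of red cells (ENSG00000117394.23, chromosome 1, 42925375 to 42959176, GRCh38), and was at 13.5 FPKM in MOLT4 cells and 68.7 FPKM in K562. SLC2A3, which encodes the high-affinity transporter GLUT3 (chromosome 12, 7919230 to 7936275), was at 3.17 FPKM in MOLT4 cells and 66.9 FPKM in K562. These are 5.09-fold and 21.1-fold differences, both called in the authors' deposited table (q = 0.000203, the smallest it holds). SLC2A1 alone made up 80.8% of the summed transporter level in MOLT4, whereas in K562 it held 50.5% and SLC2A3 49.1%. With the other SLC2A transporters added to the sum, SLC2A1 held 63.6% in MOLT4 and 46.6% in K562. The sum over the 4 transporters was 16.7 FPKM in MOLT4 cells and 136 FPKM in K562, an 8.14-fold difference and the widest of the 16 steps. SLC2A4, the insulin-responsive transporter of muscle and fat, was at 0.0482 and 0.552 FPKM and was called, and SLC2A5, a fructose transporter, was listed at 0 in MOLT4 and at 0.0112 FPKM in K562. SLC2A14 is a near copy of SLC2A3 and was listed at 0.0311 FPKM in MOLT4 cells and 4.23 FPKM in K562, so reads could have been split between them.

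Hexokinase traps glucose in the cell by phosphorylation, and its isozymes went in opposite directions. HK1, the isozyme of most tissues and of red cells (ENSG00000156515.23, chromosome 10, 69269984 to 69401884), was at 20.3 FPKM in MOLT4 cells and 239 FPKM in K562, 11.8-fold apart. HK2, the inducible isozyme of muscle, fat and many tumours (ENSG00000159399.9, chromosome 2, 74833981 to 74893359), was at 17.1 FPKM in MOLT4 cells and 8.19 FPKM in K562, a 2.09-fold difference the other way. Both were called in the authors' deposited table (q = 0.000203). HK1 thus stood at 1.19 times HK2 in MOLT4 and at 29.2 times HK2 in K562, and its share of the hexokinase sum was 54.3% in MOLT4 and 96.7% in K562. The sum was 37.4 FPKM in MOLT4, the lowest of the 11 steps from glucose to lactate, and 247 FPKM in K562, at rank 7 of 11. HK3, the white cell isozyme, was at or below 0.0344 FPKM in both lines. ADPGK, a glucokinase that uses ADP and is not a hexokinase, was at 26.9 and 25.6 FPKM, with no call, which puts it above HK1 in MOLT4 and far below it in K562. With ADPGK and the further isozymes of this step in the sum, HK2 held 26.6% in MOLT4 and 2.99% in K562, where among HK1, HK2 and HK3 it held 45.7% and 3.31%.

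The RefSeq promoter windows of this pair (GRCh38.p14, 250 bases before to 50 after the annotated start) are shown because the pair split in direction. HK1 lies at chr10:69269750-69270049, plus strand, and HK2 at chr2:74833877-74834176, plus strand. Capitals mark the hypoxia-factor core ACGTG or GCGTG and the GATA-factor motif AGATAA, each searched on both strands.
HK1: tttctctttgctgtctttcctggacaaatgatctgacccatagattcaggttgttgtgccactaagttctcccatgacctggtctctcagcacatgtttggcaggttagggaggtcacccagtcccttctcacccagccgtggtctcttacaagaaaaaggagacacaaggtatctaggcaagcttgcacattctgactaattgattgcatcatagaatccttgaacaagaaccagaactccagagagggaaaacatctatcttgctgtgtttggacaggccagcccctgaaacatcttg
HK2: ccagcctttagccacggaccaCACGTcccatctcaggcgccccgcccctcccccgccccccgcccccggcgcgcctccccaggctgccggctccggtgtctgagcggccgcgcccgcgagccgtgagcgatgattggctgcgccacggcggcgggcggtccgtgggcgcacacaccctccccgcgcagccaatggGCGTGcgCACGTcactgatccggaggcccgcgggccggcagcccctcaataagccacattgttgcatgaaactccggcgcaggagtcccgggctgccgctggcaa
The HK1 window is 46.7% G and C and holds neither motif. The HK2 window is 74.3% G and C and holds the hypoxia core at positions -229, -55 and -48, counted from the start with no position 0. Each window belongs to 1 annotated start, and HK1 has several, so the window need not be the one used in these lines.

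GPI and the phosphofructokinases differed less. GPI, which turns glucose 6-phosphate into fructose 6-phosphate, was at 139 FPKM in MOLT4 cells and 215 FPKM in K562 (1.55-fold, q = 0.00483 in the authors' deposited table). Phosphofructokinase is the committed step, built from liver, muscle and platelet subunits. PFKP, the platelet subunit, led in both lines at 86.5 FPKM in MOLT4 cells and 71.1 FPKM in K562 without a call (q = 0.493 in the authors' deposited table). PFKL, the liver subunit, was at 25.5 and 36.6 FPKM and was called higher in K562 (q = 0.0167, authors' deposited table). PFKM, the muscle subunit, was at 37.2 and 18.4 FPKM and was called higher in MOLT4 (q = 0.0185, authors' deposited table). PFKL and PFKM, the subunits of red cells, therefore exchanged places: PFKM held 24.9% and PFKL 17.1% of the sum in MOLT4, and 14.6% and 29.01% in K562, while PFKP held 58.0% and 56.4%. The exons of PFKM overlap those of SENP1 on the opposite strand over 8.58% of their length, and SENP1 was at 35.1 FPKM in MOLT4 cells and 28.3 FPKM in K562.

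The PFKFB enzymes make and remove fructose 2,6-bisphosphate, the strongest activator of phosphofructokinase, and their order differed between the lines. PFKFB3, the isozyme with the highest ratio of kinase to phosphatase activity, was at 7.75 FPKM in MOLT4 cells and 8.06 FPKM in K562 (q = 0.865 in the authors' deposited table). PFKFB4 (chromosome 3, 48517684 to 48562015) was at 0.723 FPKM in MOLT4 cells and 11.6 FPKM in K562, 16.0-fold apart. PFKFB2, known from heart, was at 2.38 and 11.8 FPKM, 4.98-fold apart, and both were called higher in K562 (q = 0.000203, authors' deposited table). PFKFB3 held 71.4% of the summed level in MOLT4, whereas in K562 the 3 genes held 37.6% (PFKFB2), 36.7% (PFKFB4) and 25.6% (PFKFB3). PFKFB2 shares 3.09% of its exon length with YOD1 on the opposite strand, which was at 6.93 FPKM in MOLT4 cells and 44.9 FPKM in K562, and the part of that overlap was not tested. The RefSeq windows of the genes with the largest loss and gain of share are PFKFB3 at chr10:6144671-6144970, plus strand, and PFKFB4 at chr3:48556754-48557053, minus strand, with the same motifs in capitals.
PFKFB3: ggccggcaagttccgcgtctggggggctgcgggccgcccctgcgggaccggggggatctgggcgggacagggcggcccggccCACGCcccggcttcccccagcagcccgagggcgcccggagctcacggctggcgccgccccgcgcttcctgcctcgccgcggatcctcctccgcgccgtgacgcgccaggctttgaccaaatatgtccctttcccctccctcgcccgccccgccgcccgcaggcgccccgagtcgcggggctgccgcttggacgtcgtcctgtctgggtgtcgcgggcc
PFKFB4: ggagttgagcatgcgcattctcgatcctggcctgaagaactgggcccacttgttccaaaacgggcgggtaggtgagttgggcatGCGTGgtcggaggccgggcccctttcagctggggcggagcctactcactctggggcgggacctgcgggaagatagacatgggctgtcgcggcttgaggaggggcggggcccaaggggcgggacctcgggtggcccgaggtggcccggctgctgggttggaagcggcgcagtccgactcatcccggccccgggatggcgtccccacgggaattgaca
The hypoxia core stood once in each, at position -168 in PFKFB3 and at position -166 in PFKFB4, and neither held the GATA motif.

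Aldolase and triose phosphate isomerase complete the part of the pathway that spends ATP. ALDOA, the main aldolase of dividing cells, muscle and red cells (ENSG00000149925.20, chromosome 16, 30064164 to 30070457), was at 448 FPKM in MOLT4 cells and 967 FPKM in K562 (2.16-fold, q = 0.000203 in the authors' deposited table). ALDOC, the brain form, was at 32.1 and 43.7 FPKM and was not called (q = 0.742, authors' deposited table). It overlaps the antisense gene AC005726.4, at 19.2 and 29.4 FPKM, over 10.1% of its exon length. ALDOA held 93.3% of the aldolase sum in MOLT4 and 95.7% in K562. TPI1, which interconverts the triose phosphates, was at 354 and 421 FPKM and was not called (q = 0.541, authors' deposited table). Summed over the 5 steps from hexokinase to triose phosphate isomerase, the level was 1160.1 FPKM in MOLT4 cells and 2021 FPKM in K562.

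The part that yields ATP held the most abundant transcripts, and its members went in opposite directions. GAPDH, which makes the NADH of glycolysis (ENSG00000111640.15, chromosome 12, 6533927 to 6538374), was at 2140.0 FPKM in MOLT4 cells and 1239.5 FPKM in K562 (1.73-fold, q = 0.00294 in the authors' deposited table), and ranked 29th and 88th of all genes. PGK1, the first ATP-forming step, was at 288 and 179.9 FPKM, also called higher in MOLT4 (1.60-fold, q = 0.0102, authors' deposited table). ENO1 (ENSG00000074800.16, chromosome 1, 8861000 to 8879250), the ubiquitous enolase, was at 582 FPKM in MOLT4 cells and 1488 FPKM in K562, called higher in K562 (2.56-fold, q = 0.000203, authors' deposited table). The ratio of GAPDH to ENO1 was therefore 3.68 in MOLT4 and 0.833 in K562. PGAM1, between PGK1 and the enolases, was at 147 and 129 FPKM and was not called (q = 0.426, authors' deposited table), and its muscle counterpart PGAM2 was at 0.104 and 0.0412 FPKM. BPGM, which makes the 2,3-bisphosphoglycerate that lowers the oxygen affinity of haemoglobin in red cells, was at 20.04 FPKM in MOLT4 cells and 15.4 FPKM in K562, with no call (q = 0.149, authors' deposited table). Over the 5 steps from GAPDH to pyruvate kinase the summed level was 3411 FPKM in MOLT4 cells and 3331 FPKM in K562.

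Part of the GAPDH signal has an uncertain owner. The annotated antisense gene AC006064.4 lies wholly within the exons of GAPDH on the opposite strand (chromosome 12, 6537794 to 6538370) and was listed at 1904 FPKM in MOLT4 cells and 1049 FPKM in K562. No label or header states whether the counting used strand. Reads of the overlap can therefore not be assigned. The summed FPKM of both genes was 1.77-fold higher in MOLT4. FPKM is per length and the overlap covers 14.2% of the GAPDH exon length, so this sum does not restore a GAPDH level. The 62 listed GAPDH pseudogenes summed to 1.43 and 1.03 FPKM, and for each of the 12 pathway genes with listed pseudogenes these summed to under 1% of the parent's level.

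Among the minor enolases, ENO2, the neuronal form, was at 36.6 FPKM in MOLT4 cells and 14.6 FPKM in K562, a 2.51-fold difference without a call (q = 0.0616 in the authors' deposited table). It lies in the same authors' locus as TPI1. ENO3, the muscle form, was at 7.59 and 8.21 FPKM (q = 0.919, authors' deposited table), and it overlaps PFN1, at 554 and 422 FPKM, over 2.59% of its exon length. ENO1 stood at 15.9 times ENO2 in MOLT4 and at 102 times ENO2 in K562.

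**Figure D3:**
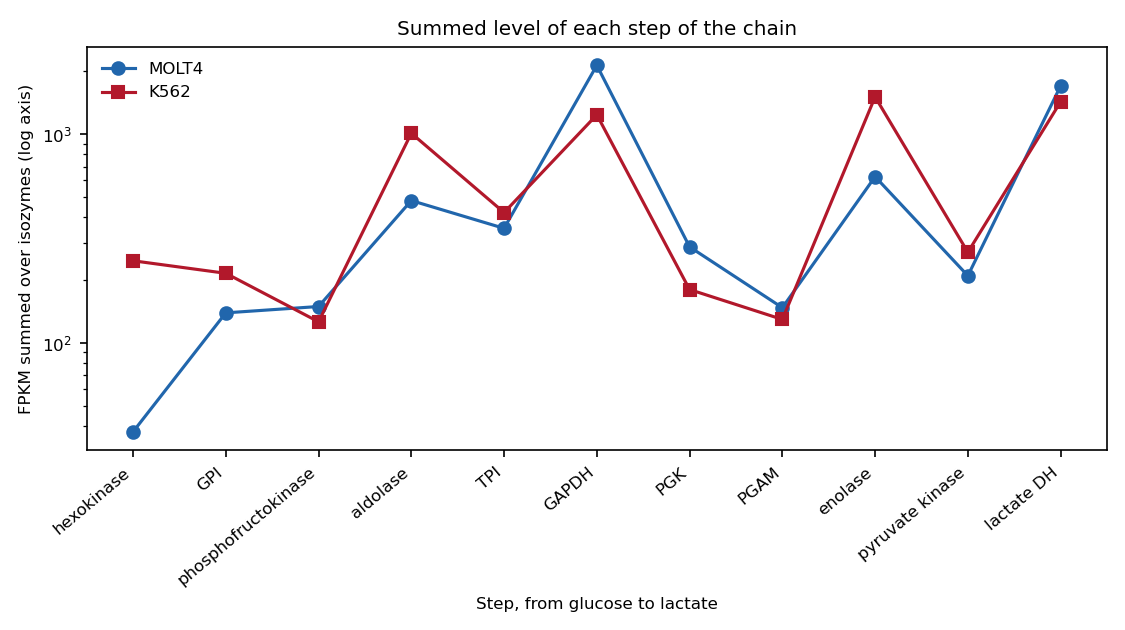
FPKM summed over the isozymes of each of the 11 steps from glucose to lactate on a log axis, with circles for MOLT4 and squares for K562. Hexokinase is the lowest step in MOLT4 at 37.4 FPKM and stands at 247 FPKM in K562, GAPDH is the highest step in MOLT4 at 2140.0 FPKM, and enolase is the highest in K562 at 1511 FPKM.

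The span from the lowest to the highest step of the chain was narrower in K562. The highest step exceeded the lowest 57.2-fold in MOLT4, GAPDH against hexokinase, and 12.0-fold in K562, enolase against phosphofructokinase. The MOLT4 span rests on hexokinase alone, at 37.4 FPKM, since the next lowest step, GPI, was at 139 FPKM. With ADPGK and the further isozymes added, the hexokinase step was at 64.3 FPKM in MOLT4. From the top, lactate dehydrogenase stood at rank 2, aldolase at rank 4 and triose phosphate isomerase at rank 5 in both lines. Of all 16 steps, including transport and control, 9 had the higher sum in K562 and 7 in MOLT4. Neighbouring steps in the order cannot be separated, since no spread between replicates is at hand.

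Pyruvate kinase makes pyruvate and the last ATP. PKM, whose transcripts encode the M1 and M2 forms by alternative splicing, was at 209 FPKM in MOLT4 cells and 240.0 FPKM in K562 without a call (q = 0.435 in the authors' deposited table). The values are per gene, so M1 and M2 cannot be told apart. PKLR encodes the red cell and liver forms (ENSG00000143627.19, chromosome 1, 155289293 to 155301438) and was at 0.340 FPKM in MOLT4 cells and 31.7 FPKM in K562. This 93.2-fold difference, the widest in the pathway, was not called (q = 0.0651, authors' deposited table). Of 218 tested genes at least as abundant and at least as far apart, with both values above 0, 161 were called in the authors' deposited table. PKLR held 0.162% of the pyruvate kinase sum in MOLT4 and 11.7% in K562. Its exons overlap those of HCN3 on the opposite strand over 17.6% of their length, and HCN3 was at 1.75 and 4.32 FPKM. The RefSeq window of PKLR is at chr1:155301389-155301688, minus strand, shown for the size of the difference, with the hypoxia core and the GATA motif in capitals.
PKLR: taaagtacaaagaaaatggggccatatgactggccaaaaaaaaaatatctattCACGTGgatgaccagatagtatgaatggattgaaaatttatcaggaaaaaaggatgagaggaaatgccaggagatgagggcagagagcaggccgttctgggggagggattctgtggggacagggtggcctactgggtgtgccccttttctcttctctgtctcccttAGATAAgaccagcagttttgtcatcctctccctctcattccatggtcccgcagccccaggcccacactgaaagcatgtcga
It holds the GATA motif at position -31 and the E-box CACGTG, which contains the hypoxia core on both strands, at position -197.

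Lactate dehydrogenase turns pyruvate and NADH into lactate and NAD, with LDHA favouring lactate formation and LDHB the reverse. LDHA was at 807 FPKM in MOLT4 cells and 850.3 FPKM in K562 without a call (q = 0.827 in the authors' deposited table). LDHB (chromosome 12, 21635342 to 21757857) was at 898 and 581 FPKM and was called higher in MOLT4 (1.55-fold, q = 0.00553, authors' deposited table). LDHB therefore led in MOLT4, with 52.7% of the sum, and LDHA led in K562, with 59.4%. Lactate leaves through monocarboxylate transporters. SLC16A1, which encodes MCT1, was at 52.5 FPKM in MOLT4 cells and 86.3 FPKM in K562 (1.65-fold, q = 0.00125, authors' deposited table). SLC16A3, which encodes the export transporter MCT4 of highly glycolytic cells, was at 1.66 and 1.83 FPKM (q = 0.896, authors' deposited table), so SLC16A1 held 96.9% and 97.9% of the sum of both, and 87.98% and 97.9% with SLC16A7 and SLC16A8 added. SLC16A3 overlaps CSNK1D, at 51.0 and 53.5 FPKM, on the opposite strand over 5.36% of its exon length. SLC16A7, which encodes MCT2, was at 5.22 FPKM in MOLT4 cells and 0.0144 FPKM in K562 and was called. The chaperones that bring these transporters to the membrane also differed in the authors' deposited table: BSG, the partner of MCT1 and MCT4, was called, at 218 FPKM in K562 against 111 FPKM, and EMB, the partner of MCT2, was at 45.7 FPKM in MOLT4 while K562 listed it at 0.

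The pyruvate dehydrogenase kinases switch off pyruvate dehydrogenase and so hold pyruvate back from the mitochondrion, and the share of PDK1 among them differed by 68.6 points, the most of any isozyme. PDK2 (ENSG00000005882.12, chromosome 17, 50094737 to 50112152), the widely expressed kinase, was at 28.5 FPKM in MOLT4 cells and 2.096 FPKM in K562, 13.6-fold apart. PDK3 (chromosome X, 24465221 to 24541862) was at 5.88 and 0.469 FPKM, 12.6-fold apart, and both were called higher in MOLT4 (q = 0.000203 in the authors' deposited table). PDK1, a known target of hypoxia-inducible factor (ENSG00000152256.13, chromosome 2, 172555373 to 172608669), was at 5.28 and 11.6 FPKM and was called higher in K562 (2.199-fold, q = 0.0189, authors' deposited table). PDK2 held 71.9% of the summed level in MOLT4 and 14.8% in K562, and PDK1 13.3% and 81.9%. PDK4, the starvation-induced kinase, was listed at 0 and at 0.0335 FPKM. Summed over PDK1, PDK2 and PDK3, the level was 39.7 FPKM in MOLT4 cells and 14.2 FPKM in K562. PDK2 and SAMD14 overlap on opposite strands over 38.6% of the exon length of PDK2, and SAMD14 was at 1.997 and 0.120 FPKM. The RefSeq windows of the pair that exchanged the lead are PDK1 at chr2:172555123-172555422, plus strand, and PDK2 at chr17:50094487-50094786, plus strand.
PDK1: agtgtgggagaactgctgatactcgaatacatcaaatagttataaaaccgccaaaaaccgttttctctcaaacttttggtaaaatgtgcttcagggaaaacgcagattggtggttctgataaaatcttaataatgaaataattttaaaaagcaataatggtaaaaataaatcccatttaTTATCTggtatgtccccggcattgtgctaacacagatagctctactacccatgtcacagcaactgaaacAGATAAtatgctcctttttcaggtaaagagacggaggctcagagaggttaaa
PDK2: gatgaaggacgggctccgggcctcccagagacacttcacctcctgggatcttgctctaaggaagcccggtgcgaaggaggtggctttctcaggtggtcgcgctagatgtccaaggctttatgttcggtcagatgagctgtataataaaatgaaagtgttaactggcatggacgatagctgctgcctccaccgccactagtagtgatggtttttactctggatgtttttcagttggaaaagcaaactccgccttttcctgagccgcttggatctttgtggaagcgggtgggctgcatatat
PDK1 holds the GATA motif at positions -71 and -2 and PDK2 does not, and neither window holds the hypoxia core. The PDK1 window is 36.3% G and C and the PDK2 window 51.3%, against a median of 58.3% over all windows.

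**Figure D4:**
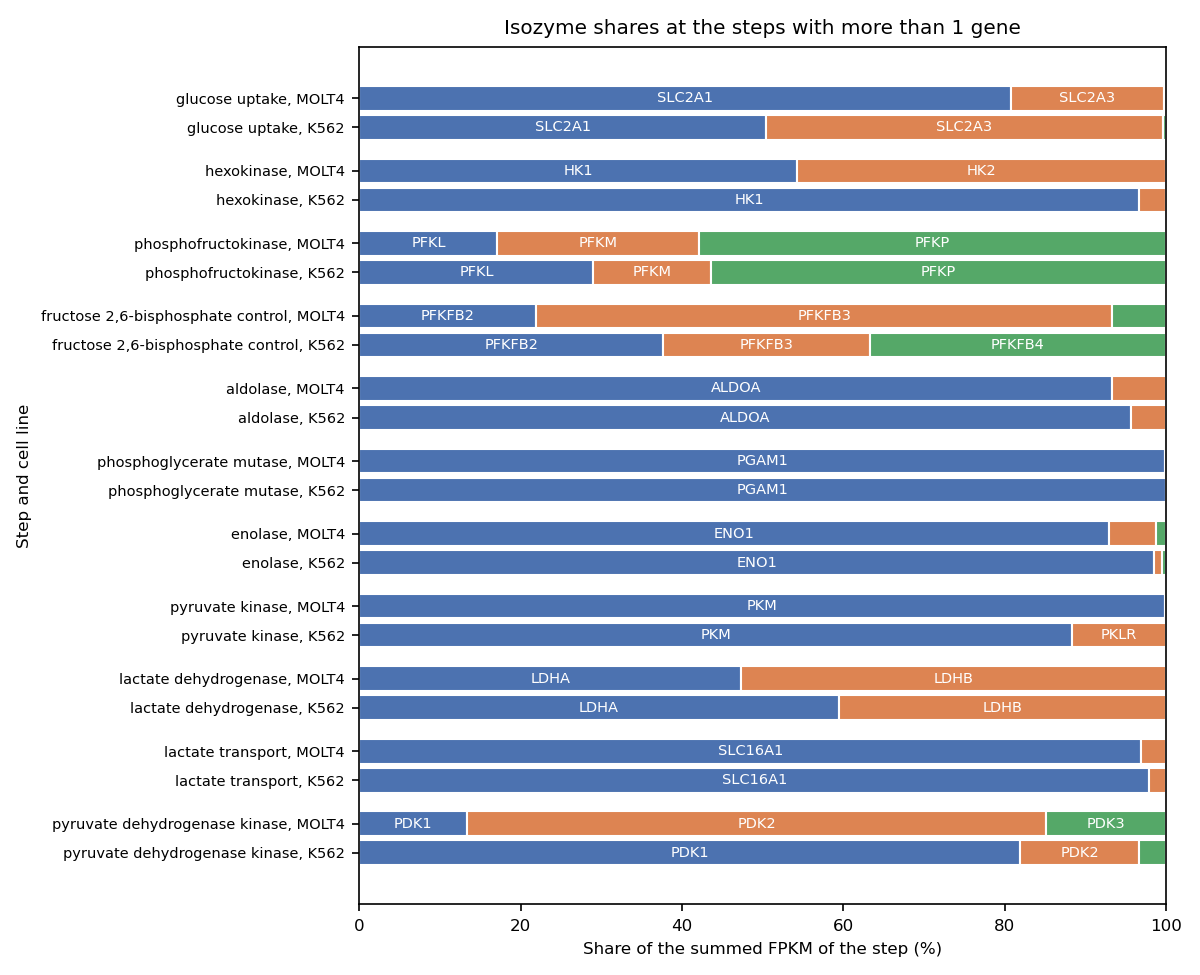
Share of each isozyme in the summed FPKM of its step, in percent, for the 11 steps with more than 1 gene, with MOLT4 above K562 in each pair of bars. The leading isozyme differs at 3 steps (PFKFB, lactate dehydrogenase and pyruvate dehydrogenase kinase), and HK1 goes from 54.3% of hexokinase in MOLT4 to 96.7% in K562.

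Taking the isozyme sets together, the leading gene was the same in both lines at 8 of 11 steps and differed at 3. This count rests on single values without a spread, and some leads were narrow. SLC2A1 stood at 1.03 times SLC2A3 in K562, and LDHB at 1.11 times LDHA in MOLT4. RefSeq windows were matched for 30 of the 34 genes, all but SLC2A3, SLC2A4, PFKFB2 and SLC16A1. The hypoxia core was in 21 of the 30 (70.0%), against 48.4% of 27305 windows of the same length, and median G and C content was 68% in the pathway and 58.3% over all. The E-box CACGTG, which overlaps the hypoxia core, was in 4 of the 30 and 7.43% of all windows, and the GATA motif in 3 (PGAM1, PKLR and PDK1) and 10.5% of all. A match of letters is no evidence of binding.

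Genes that feed or leave the pathway were taken from 7 lists, and beside each count of calls stands the share of all tested genes called in that direction. In the mitochondrial entry of pyruvate, the authors' deposited table called 6 of 11 tested genes toward K562 (54.5%, against 23.4% of all) and 2 toward MOLT4 (18.2%, against 18.8%), with a median log2 ratio of 0.80 on the FPKM + 1 scale against 0.06 over all genes. DLAT and PDHX, a core enzyme and the binding protein of the pyruvate dehydrogenase complex, were at 17.7 and 16.6 FPKM in MOLT4 cells but at 89.8 and 35.9 FPKM in K562. The phosphatase PDP1, which reverses the action of the PDK enzymes, was at 10.3 FPKM in MOLT4 cells and 1.07 FPKM in K562. The kinases PDK2 and PDK3 and this phosphatase were thus all higher in MOLT4. In the pentose phosphate pathway 3 of 7 were called toward K562 (42.9%, against 23.4% of all) and 1 toward MOLT4 (14.3%, against 18.8%) in the authors' deposited table, with a median of -0.0022. TALDO1, transaldolase, was at 118 FPKM in MOLT4 cells and 406 FPKM in K562. RPIA, which makes ribose 5-phosphate, was at 45.9 FPKM in MOLT4 cells and 20.4 FPKM in K562.

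Of 8 glycogen genes 2 were called in each direction in the authors' deposited table, 25% each way and near the 23.4% and 18.8% of all tested genes (median -0.26). PGM1, the phosphoglucomutase that links glycogen to glycolysis, was at 15.6 FPKM in MOLT4 cells and 0.00403 FPKM in K562, while PGM2 was at 50.7 and 40.9 FPKM. PYGL, the liver glycogen phosphorylase, was at 0.476 FPKM in MOLT4 cells and 14.7 FPKM in K562, and GBE1, the branching enzyme, at 7.59 and 17.5 FPKM. Of 5 gluconeogenesis genes 2 were tested, and the authors' deposited table called both toward K562, where 23.4% of all tested genes were called. The called genes were PCK2 at 35.7 against 7.73 FPKM, and G6PC3 at 21.9 against 10.6 FPKM. The list median of 1.52 rests on these 2 genes alone. FBP1, FBP2 and PCK1 were not tested and were at 0.132 FPKM or less in both lines. Of 9 genes of the shuttles that carry NADH into the mitochondrion the authors' deposited table called 3 toward K562 (33.3%, against 23.4% of all) and none toward MOLT4 (against 18.8%), with a median of 0.91. These were MDH2 at 291 against 96.1 FPKM, GOT1 at 74.2 against 18.7 FPKM and the aspartate-glutamate carrier SLC25A13 at 49.3 against 0.885 FPKM. GPD2, the glycerol phosphate shuttle enzyme, was at 20.6 FPKM in K562 cells and 0.00857 FPKM in MOLT4 with no call (q = 0.0847, authors' deposited table).

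Of the hypoxia pathway genes outside glycolysis, 18 of 20 were tested, and the authors' deposited table called 11 toward K562 (61.1%, against 23.4% of all) and 2 toward MOLT4 (11.1%, against 18.8%), with a median of 1.05. HIF1A itself was at 54.1 FPKM in MOLT4 cells and 23.8 FPKM in K562, called higher in MOLT4, and EPAS1, which encodes HIF2 alpha, was at 0.762 FPKM in MOLT4 cells and 10.9 FPKM in K562. The negative regulators VHL, EGLN1 and EGLN3 were called higher in K562, at 59.0, 35.6 and 11.1 FPKM against 29.4, 15.7 and 0.661 FPKM. Known targets of these factors were VEGFA at 87.8 FPKM in K562 against 7.91 FPKM in MOLT4, BNIP3 at 26.7 against 8.53 FPKM, P4HA1 at 27.4 against 12.1 FPKM, P4HA2 at 13.1 against 0.0281 FPKM and MXI1 at 14.6 against 4.69 FPKM. NDRG1, another target, was at 11.4 FPKM in MOLT4 cells and 3.30 FPKM in K562, and CA9 and ADM were under 0.1 FPKM in both lines. BNIP3L (43.1 and 61.4 FPKM), KDM3A (16.9 and 15.8 FPKM) and ANKRD37 (1.38 and 1.43 FPKM), also on the list, were not called. TXNIP, which restrains glucose uptake and is induced by glucose, was at 183 FPKM in K562 cells and 33.9 FPKM in MOLT4. It is on this list and is counted among the 11 called toward K562.

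**Figure D5:**
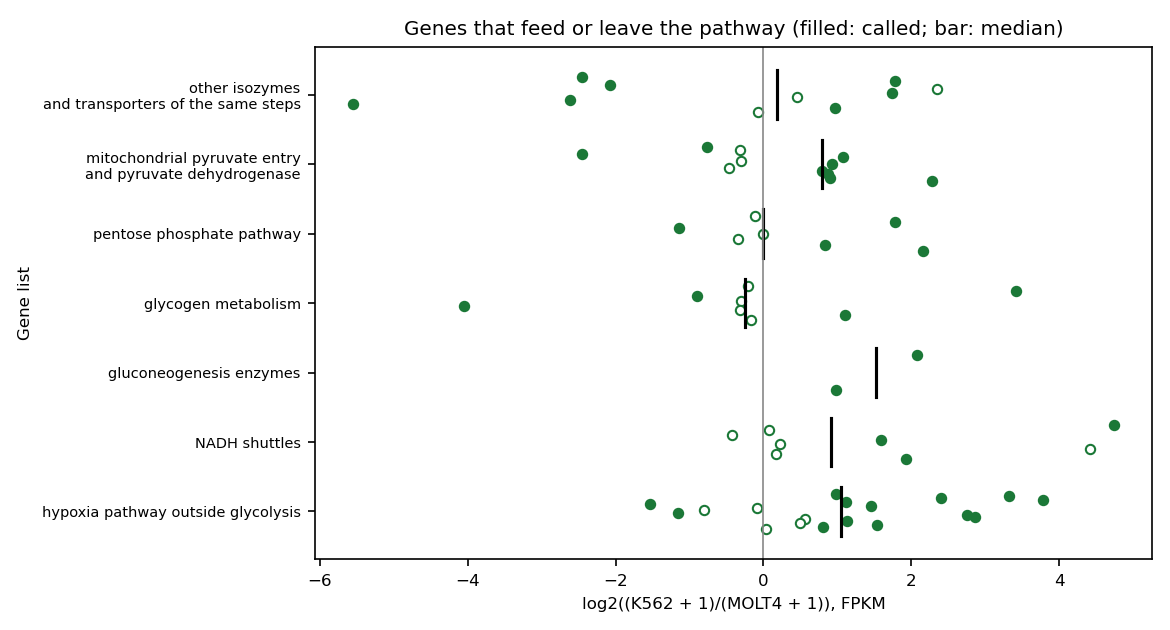
Log2((K562 + 1)/(MOLT4 + 1)) of each gene with a mean of at least 1 FPKM in the 7 lists of neighbouring pathways; filled points were called in the authors' deposited table, open points were not, and bars mark list medians. The median of the hypoxia list is 1.05 and that of the mitochondrial pyruvate list 0.80, against 0.06 over all genes.

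Of 25 further isozymes, transporters and partners of the same steps, 11 were tested, and the authors' deposited table called 3 toward K562 (27.3%, near the 23.4% of all) and 4 toward MOLT4 (36.4%, against 18.8%), with a median of 0.19. TIGAR, a phosphatase that lowers fructose 2,6-bisphosphate, was at 6.30 FPKM in MOLT4 cells and 0.331 FPKM in K562, opposite in direction to PFKFB2 and PFKFB4. Of the other transporters, SLC2A6 was at 3.58 FPKM in MOLT4 cells and 0.0884 FPKM in K562, SLC2A13 at 0.204 and 3.002 FPKM, and SLC2A8 listed at 0 and at 2.42 FPKM, each called. The germline isozymes GAPDHS, PGK2, LDHC and LDHAL6B were at or below 0.0375 FPKM in both lines. In bulk RNA, fewer cells with a transcript and less RNA per cell cannot be told apart.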

How the data were processed

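RNA sequencing of K562 and MOLT4 cells was read from the deposited gene table. Per the submitters' processing notes, the tools were Cuffdiff, Cufflinks 2.2.2, TopHat2 2.1.1 and CASAVA 1.8.2, and the builds hg38 and GRCh38.p13. Per the file headers the values are FPKM, and the authors' deposited p-values and q-values are those of Cuffdiff. Replicate values and counts were not used here, strand use and scaling between lines are not given in the sources used here, and the q-values may compare 2 libraries or combine 3 each. Of 60586 genes, 18870 were tested, 41638 were not, 75 had too many fragments at the locus and 3 failed. The q-values matched a Benjamini-Hochberg adjustment over the 18870 genes within 5.25e-07. The smaller table's 18870 rows were identical to theirs.

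Ratios, sums and shares were computed with Python 3.11.15 and pandas 2.3.3 and tested on simulated data. Fold rules required a mean of at least 1 FPKM, and medians used a pseudocount of 1 FPKM, which understates low genes. Gene positions and overlaps are those of GENCODE 29 on GRCh38, and a promoter window is RefSeq's. All 34 genes are named, and from the neighbouring lists each gene called at least 2-fold apart with 10 FPKM or more, plus others chosen after their values were seen. Some genes of these lists, counted with them, are not reported here by name. The members and lists were chosen with earlier results of these data known. Alternatives were a stricter q, other scalings, pseudocounts, filters and added isozymes. Protein sequences were not used here.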

Additional observations from a re-analysis of the deposited data

How the results depend on the processing

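Calls toward K562 numbered 12 and came to between 9 and 11 under a q of at most 0.01, a q over genes with a mean of at least 1 FPKM, and a call that also needs 2-fold. Calls toward MOLT4 numbered 7, and 4 also differed at least 2-fold. The 5 genes at least 2-fold higher in MOLT4 became 3 with a pseudocount of 1 FPKM. The 9 genes at least 2-fold higher in K562 became 8 with scaling over tested genes alone. Scaling each line to an equal sum moved each log2 ratio by -0.11. The summed aldolase level then fell below 2-fold, with a log2 ratio of 0.96, and of 0.95 with scaling over tested genes alone. The median log2 ratio of 0.15 became 0.17 with a pseudocount of 0.1 FPKM, 0.10 with no filter, 0.20 at a mean of at least 10 FPKM, 0.0550 after scaling to an equal sum, 0.13 after centring on the median ratio and 0.0474 after scaling over tested genes alone, an alternative chosen after seeing the data. Under scaling to an equal sum and over tested genes, PFKFB3 turned to -0.0525 and -0.0619 and LDHA to -0.0326 and -0.0419, and ENO3 to -0.0037 over tested genes. With other isozymes added the share difference of HK3 turned to 0.0031 points, and ADPGK led in MOLT4, so the leading gene differed at 4 steps. No paired analysis was possible because the table holds 1 value per line. No replicate could be left out for the same reason. The unknown depth limits statements on genes under 1 FPKM.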
